A study of Mus musculus with 24 samples.

Results

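Splenic B cells kept for 12 h with DMSO, the solvent control, were compared with B cells that had received no treatment. The comparison used the 4 of 24 samples labelled B cell with either of these treatments, 2 samples each, and these occupied 2 of the 12 arrays of the series. All B cells came from the spleens of C57BL/6 mice and were resting cells left after magnetic removal of cells bearing CD43 or CD11b. The untreated group carries no time in its labels, and the medium in which the DMSO group was kept is not given in the sources used here, so that time outside the animal, the medium and DMSO cannot be told apart. The series as a whole measured mRNA in B cells, macrophages elicited in the peritoneum with thioglycollate (EPM) and macrophages grown from bone marrow (BMDM), with and without the TLR4 agonist Kdo2 lipid A (KLA), at 1 h and 12 h. Each Agilent 2-colour array carried both samples of 1 condition, 1 in the Cy5 and the other in the Cy3 channel. The labels call the untreated samples biological replicates and do not say so of the DMSO samples. Array and condition therefore cannot be told apart, and p-values measure the spread between the channels of an array.

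The labels of the DMSO 12 h samples were in conflict between files. In the table of normalized values, the columns named for DMSO 12 h in B cells were closest to the scanner channels labelled KLA 1 h (r = 0.985 to 0.987 across 23819 probes), the columns named for KLA 1 h were closest to the channels labelled DMSO 12 h (r = 0.985 and 0.986), and with the channels of their own name both correlated negatively (-0.78 to -0.719). The other B cell columns matched their own channels (0.973 to 0.986). The scanner labels were used here, and values with the exchanged labels are given beside the gene groups. On the scanner labels the 4 B cell arrays grouped by time. On the exchanged labels the same distances group them by KLA, and the comparison made here would be KLA 1 h against untreated. The median absolute log2 difference between arrays was 0.0808 for untreated against KLA 1 h and 0.0741 for DMSO 12 h against KLA 12 h, but 0.185 for untreated against DMSO 12 h. Between the channels of a single B cell array it was 0.0755 to 0.0855. In the 4 channels, 58.3% to 60.1% of probes were well above background and the median spot was 1.78 to 2.41 times its local background. No spot was saturated.

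Mature splenic B cells are quiescent and recirculate between blood and follicles, guided by chemokine and sphingosine 1-phosphate receptors and kept alive by signals such as BAFF. Signals through the antigen receptor, CD40 or Toll-like receptors induce within minutes to hours the immediate-early transcription factors, NF-kappaB feedback genes and activation markers such as CD69 and CD86, and then, through Myc among others, the genes for ribosome production, amino acid supply and cell division. Cells meet their need for cholesterol by synthesis and by uptake of lipoproteins, which the transcription factor SREBP2 raises when membranes are poor in sterol, whereas the LXR receptors raise efflux when sterols are plentiful.

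Of 17195 genes tested, 8153 differed between DMSO 12 h and untreated B cells (limma, adjusted p under 0.05), which was 47.4% of the genes. Of these, 4306 were higher at 12 h (25.0% of genes) and 3847 were lower (22.4%). Most changes were small, since 5391 of the called genes changed by less than 1.5-fold and 90% of all genes lay between -0.63 and 0.86 on the log2 scale. Changes over 2-fold were found for 615 genes that were higher and 258 that were lower, and changes over 4-fold for 53 and 13. The median difference of all genes was 0.00 and the median standard error 0.08. Without quantile normalization between arrays, when only the channel medians were set equal, the calls were 3265 higher and 4917 lower. Values given below as without normalization between arrays are from this setting. The list counts below are read against the shares of 25.0% and 22.4%, and the plot of 30 functional lists gives every member. In bulk samples, fewer cells of a type and less RNA per cell cannot be told apart. With the labels exchanged 888 genes were called (5.16%), 468 of them higher and 420 lower.

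**Figure D1:**
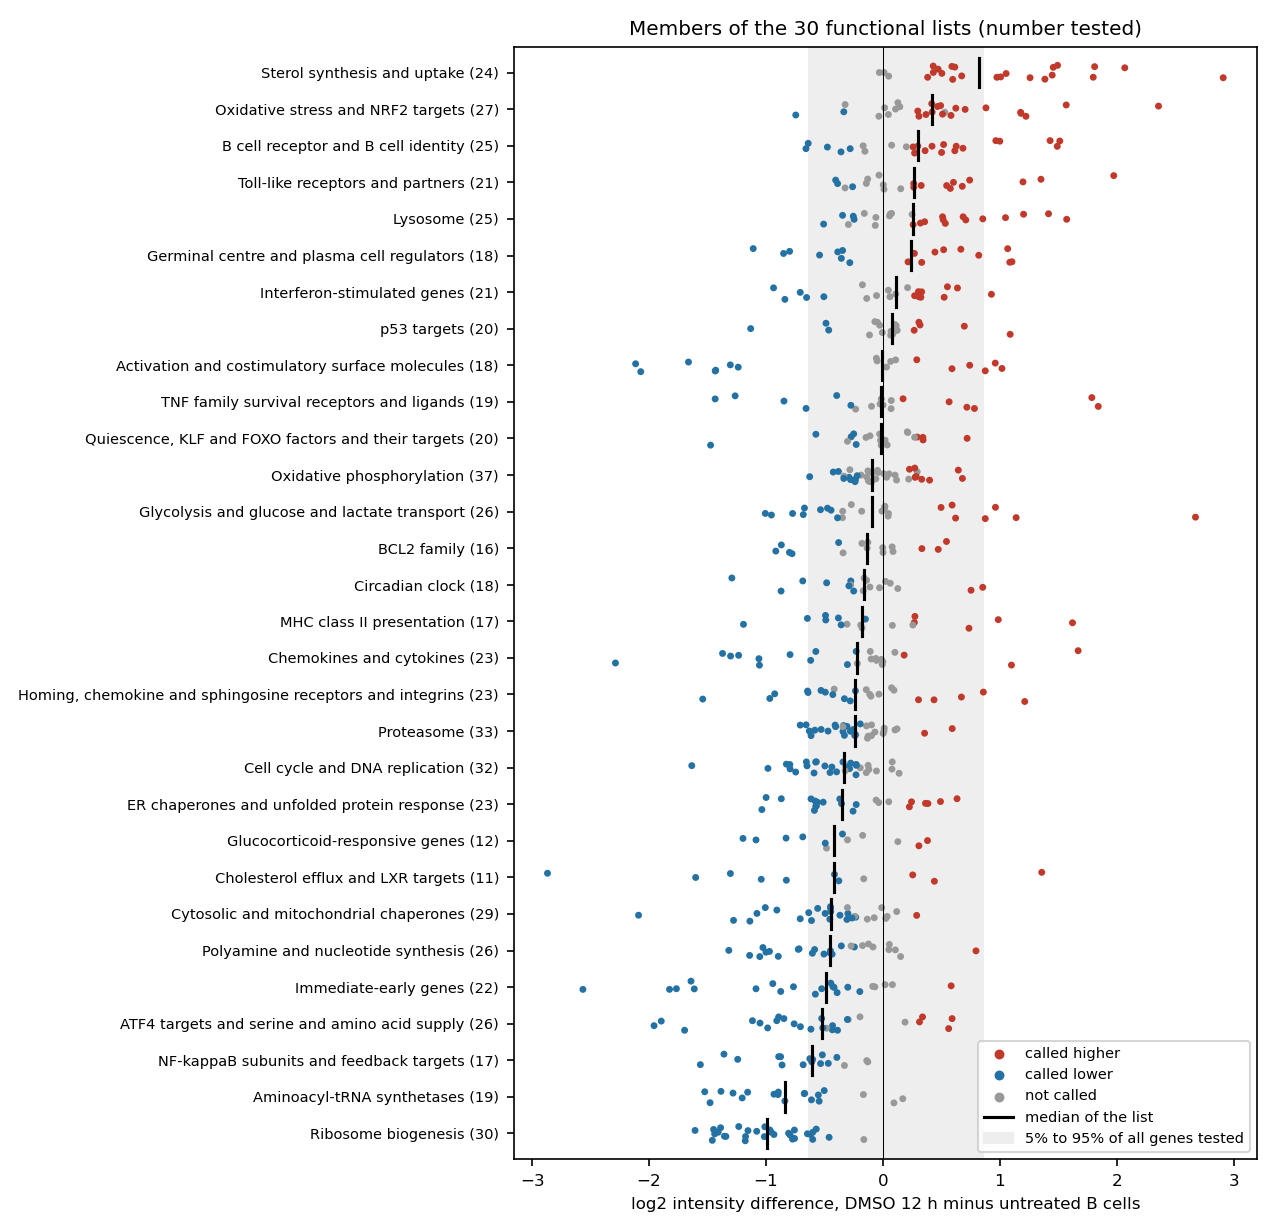
Log2 intensity difference between DMSO 12 h and untreated B cells (x axis) for each tested member of 30 functional lists (y axis, ordered by median, number of members in parentheses). Each point is 1 gene, red where called higher, blue where called lower and grey where not called, black bars are list medians, and the grey band holds 90% of all genes tested. Sterol synthesis stood highest with a median of 0.82 and ribosome biogenesis lowest with a median of -0.99.

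Genes of sterol synthesis and uptake formed the list with the highest median. Of 24 genes tested, 21 rose, none fell, and 11 rose by more than 2-fold, with a median log2 difference of 0.82 against 0.00 over all genes. Sqle, the squalene epoxidase, read a log2 intensity of 9.56 in Cy5 and 9.47 in Cy3 in untreated cells and 11.37 and 11.28 at 12 h. Both 12 h channels thus stood above both untreated channels, a 3.51-fold rise (log2 difference 1.81, standard error 0.12, limma adjusted p = 4.69e-10). Idi1, the isopentenyl diphosphate isomerase, went from 9.91 and 9.99 to 11.82 and 11.68, a 3.48-fold rise (adjusted p = 9.72e-13), and its other probe rose by 0.84. Along the pathway the rises reached from the early mevalonate steps to the last reductases. Hmgcs1, which makes HMG-CoA, rose by 1.49 on the log2 scale (its other probes by 0.24 and 0.29), and Mvk and Mvd, the mevalonate kinase and decarboxylase, by 1.45 and 1.46. Later steps followed, with Msmo1 at 1.26, Cyp51, the lanosterol demethylase, at 1.05, and Dhcr7 at 1.39 (its other probe at 0.44). Srebf2, which encodes SREBP2, rose by 0.62 and Insig1, which retains it in the endoplasmic reticulum, by 0.43. Of the 3 members that were not called, Srebf1, which encodes the sister factor SREBP1, differed by -0.03. On the exchanged labels, the list median was 0.03, and 1 member was called, lower.

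The promoter of Hmgcs1 is shown because it alone among the sterol genes with an entry carried the letters of a sterol response element, TCACNCCAC, on either strand. RefSeq promoter windows (GRCm38.p6, mostly upstream of the start) were found for 16 of the 24 genes, and the letters were in 1 of the 16 (6.25%) and in 388 of 27025 genes (1.44%). The sequence lies at chr13:119690101-119690400 on the plus strand, reads 5′ to 3′, and has the match in capitals.
Hmgcs1: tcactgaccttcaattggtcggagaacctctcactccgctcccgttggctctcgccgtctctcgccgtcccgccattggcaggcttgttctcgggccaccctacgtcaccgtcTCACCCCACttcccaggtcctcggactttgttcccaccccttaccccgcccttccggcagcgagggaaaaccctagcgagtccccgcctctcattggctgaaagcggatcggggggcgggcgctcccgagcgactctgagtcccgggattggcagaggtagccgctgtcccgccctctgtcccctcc

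Genes of cholesterol efflux and other LXR targets moved the other way. Of 11 tested, 7 fell and 3 rose, with a median of -0.41. Abcg1, a transporter that exports cholesterol to lipoproteins (mm8 chromosome 17, 30842647 to 30842706), went from 12.02 and 12.29 to 9.22 and 9.36. The fall was 7.30-fold (log2 difference -2.87, standard error 0.14, limma adjusted p = 9.67e-12). Its channels did not overlap, as required of the 12 largest decreases, to which it belongs, and as in 12482 of all genes tested. Scd2 and Scd1, desaturases of fatty acid synthesis that LXR also induces, fell 3.03-fold and 2.47-fold, and Abca1, a further cholesterol exporter, fell 2.06-fold. Apoe, an apolipoprotein that accepts cholesterol, rose, from 15.22 and 15.33 to 16.70 and 16.57 (2.56-fold), and Npc2, which moves cholesterol out of lysosomes, rose by 0.44. After exchange of the labels the median was -0.02 and no member was called.

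Immediate-early genes were mostly lower at 12 h. Of 22 tested, 17 fell and 1, Jun, rose by 0.58, with a median of -0.48. Nr4a2, an orphan nuclear receptor induced by antigen receptor signals (mm8 chromosome 2, 56923674 to 56923733), went from 8.81 and 9.05 to 6.39 and 6.35, a fall of 5.92-fold (standard error of the log2 difference 0.11, limma adjusted p = 1.22e-12). Its relative Nr4a1 was among the brighter genes, at 15.24 and 15.12 before and 13.37 and 13.34 after, a fall of 3.54-fold. Myc went from 11.48 and 11.47 to 9.73 and 9.69, which was 3.4-fold lower, and its other probes fell by 0.87 to 1.71. In each of these genes the 12 h channels were below both untreated channels, which was required of Nr4a2 as 1 of the 12 largest decreases. Egr2 fell by 1.61, Atf3 by 1.64, Dusp1, a phosphatase that ends MAP kinase signals, by 1.09, Junb by 0.94 and Fos by 0.76. Atf3 was less reduced on the KLA 12 h array, at 9.34 against 8.26 on the DMSO 12 h array. Under the exchanged labels the median was 0.12, and 4 members were called, all higher.

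The promoter of Dusp1 was 1 of 2 among 19 matched members (10.5%, Btg2 the other) to hold the cyclic AMP response element TGACGTCA, a palindrome found in 549 of 27025 genes (2.03%). It lies at chr17:26508423-26508722 on the minus strand (GRCm38.p6, 5′ to 3′, match in capitals).
Dusp1: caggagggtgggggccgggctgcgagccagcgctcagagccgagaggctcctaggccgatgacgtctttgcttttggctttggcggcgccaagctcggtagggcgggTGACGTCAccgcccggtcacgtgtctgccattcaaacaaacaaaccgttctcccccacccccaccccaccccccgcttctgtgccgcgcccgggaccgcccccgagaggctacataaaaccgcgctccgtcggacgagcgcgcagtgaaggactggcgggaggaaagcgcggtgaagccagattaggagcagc

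NF-kappaB subunits and their feedback targets fell together. Of 17 tested, 14 fell and none rose (median -0.61). Nfkbid, an atypical inhibitor of the family, went from 11.60 and 11.66 to 9.90 and 10.23, a 2.95-fold fall (standard error 0.14, limma adjusted p = 4.15e-08). Bcl3, a nuclear cofactor of the p50 and p52 subunits, went from 14.15 and 14.39 to 12.80 and 13.03 (2.57-fold lower). Birc3, an inhibitor of apoptosis and NF-kappaB target, fell 2.36-fold, and Tnfaip3, which encodes the deubiquitinase A20, fell by 0.89. Among the subunits, Nfkb1, Nfkb2, Rel and Relb fell by 0.68, 0.88, 0.86 and 0.47, whereas Rela was not called (-0.33). With the labels exchanged the median was 0.06, with 1 member called in each direction.

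Activation markers on the cell surface separated into members that fell strongly and members that rose. Of 18 tested, 7 fell, all by more than 2-fold, and 6 rose, so that the median was -0.01. Cd69, the early activation antigen that holds lymphocytes in tissue, went from 11.93 and 11.60 to 9.69 and 9.62 (4.33-fold lower, limma adjusted p = 1.27e-11). Cd86, a ligand of CD28 on T cells, went from 10.13 and 10.21 to 8.06 and 8.14 (4.20-fold lower), and its other probe fell by 1.85. The order was kept in both dyes for these genes, as was required of the 12 largest decreases, to which they belong. Il2ra, the alpha chain of the interleukin 2 receptor, fell 3.17-fold (other probes -0.90 to -0.63 on the log2 scale), Cd83 2.70-fold, Cd9 2.69-fold, Cd44, the hyaluronan receptor, 2.47-fold and Cd40 2.36-fold. The members that rose were Cd84 (1.02), Cd24a (0.96), Slamf1 (0.88), Cd48 (0.74), Cd81 (0.59) and Cd274 (0.29), of which Cd84, Slamf1 and Cd48 are receptors of the SLAM family. Cd80, the partner of Cd86, was not called (0.03). On the exchanged labels, no member was called.

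Receptors for migration changed in both directions, with 5 of 23 higher and 11 lower (median -0.23). Ccr7, which directs lymphocytes to T cell zones, went from 14.43 and 14.46 to 13.40 and 13.56 (1.95-fold lower). Rgs1, which dampens chemokine receptor signals, fell 2.91-fold, Cxcr3 by 0.93, Cxcr4 by 0.53 and Itga4 by 0.64 (other probes -0.27 to 0.03). S1pr1, the receptor that lets lymphocytes leave lymphoid organs, went from 11.60 and 11.60 to 12.51 and 12.40 (1.81-fold higher, limma adjusted p = 2.66e-10). It did not overlap between groups and rose together with Itgb7, an integrin of gut homing (2.32-fold), and Gpr183, an oxysterol receptor (1.59-fold). Cxcr5 (-0.14) and Itgal (0.07), used for entry into follicles and lymph nodes, were not called. After exchange of the labels 1 member was called higher and 3 lower.

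Genes of ribosome biogenesis had the lowest median of all lists. Of 30 tested, 29 fell, 15 of them by more than 2-fold, and none rose, with a median of -0.99. Only Npm1 was not called (-0.16). Tsr1, needed to mature the small subunit (mm8 chromosome 11, 74725087 to 74725146), went from 11.16 and 10.92 to 9.47 and 9.40 (3.05-fold lower, standard error 0.12, limma adjusted p = 2.92e-09). Polr1a and Polr1b, the largest subunits of RNA polymerase I, fell 2.65-fold and 2.75-fold, and in Polr1a the channels went from 12.89 and 12.85 to 11.49 and 11.43. Nucleolar proteins fell as well, Gnl3 by 1.45, Gar1, a component of H/ACA particles, by 1.44, Nolc1 by 1.34, Fbl, the fibrillarin methyltransferase, by 1.08 and Ncl, nucleolin, by 0.97. In 29 of 30 members the channels of the groups did not overlap, as was the case for 12482 of all genes tested. Under the exchanged labels the median was 0.00 and 1 member was called, higher.

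The promoter of Tsr1 is shown as that of the ribosome biogenesis gene with the largest fall. It holds the E-box CACGTG, the palindrome bound by Myc and related factors, which was in 7 of 25 matched members (28.0%, also Nle1, Nop2, Pes1, Rrn3, Utp20 and Wdr43) and in 2187 of 27025 genes (8.09%). The sequence lies at chr11:74897830-74898129 on the plus strand (GRCm38.p6, 5′ to 3′, match in capitals).
Tsr1: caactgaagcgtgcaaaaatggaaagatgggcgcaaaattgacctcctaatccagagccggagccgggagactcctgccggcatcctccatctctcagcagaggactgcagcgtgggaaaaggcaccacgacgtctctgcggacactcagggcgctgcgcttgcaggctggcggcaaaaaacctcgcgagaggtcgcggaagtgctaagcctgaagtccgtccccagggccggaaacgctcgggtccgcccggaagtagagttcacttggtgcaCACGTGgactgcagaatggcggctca

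Genes that charge tRNAs and supply amino acids fell with them. Of 19 aminoacyl-tRNA synthetases, 16 fell and none rose (median -0.84). Gars, which charges tRNA with glycine, went from 11.33 and 11.32 to 9.70 and 9.90 (2.88-fold lower, limma adjusted p = 7.08e-11), Yars fell 2.79-fold and Nars 2.61-fold. Of 26 ATF4 targets and genes of serine and amino acid supply, 18 fell and 4 rose (median -0.52). Psat1, an enzyme of serine synthesis, went from 12.50 and 12.28 to 10.48 and 10.39, a fall of 3.88-fold. The transporters Slc7a1 for cationic and Slc7a5 for large neutral amino acids fell 3.72-fold and 3.24-fold, a second Slc7a1 probe differed by -0.60, and Slc3a2, the partner of Slc7a5, fell by 0.85. Polyamine and nucleotide synthesis had 17 of 26 members lower and 1 higher (median -0.45), among them Srm, the spermidine synthase, which fell 2.49-fold, Ctps, the CTP synthase, which fell 2.20-fold, and Odc1, the ornithine decarboxylase, which fell by 0.97. The exception was Prps2, which rose by 0.80. With the labels exchanged the medians of these 3 lists were -0.02, 0.09 and -0.02.

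Chaperones and cell cycle genes were also mostly lower. Of 29 cytosolic and mitochondrial chaperones 20 fell and 1 rose (median -0.45). Hspa1a, the stress-inducible HSP70, went from 9.46 and 9.52 to 7.34 and 7.47 (4.26-fold lower, limma adjusted p = 3.34e-14), and its other probe fell by 2.07. Hspa9, the mitochondrial HSP70, fell 2.42-fold, and the chaperonin subunit Cct3 2.11-fold (other probe -0.48 on the log2 scale). Hspa1a and Hspa1b are near-identical genes, so that a probe may read both. Endoplasmic reticulum chaperones had 14 of 23 lower and 6 higher (median -0.35), with Dnajb9 down 2.05-fold, Calr down 2.0-fold and Pdia4 up 1.55-fold. Of 32 cell cycle genes 23 fell and none rose (median -0.33). Ccnd2, the D-type cyclin induced by antigen receptor signals, went from 12.44 and 12.12 to 10.55 and 10.73 (3.1-fold lower, adjusted p = 5.45e-10), whereas the markers of dividing cells changed less, Mki67 by -0.44, Top2a by -0.83, Cdk1 by -0.40 and the licensing helicase Mcm6 by -0.80. The proteasome had 18 of 33 lower and 2 higher (median -0.24, and -0.46 without normalization between arrays), and Psmb9, an immunoproteasome subunit, was 1 of those that rose (0.59). On the exchanged labels, these 4 lists had medians of -0.05, 0.02, -0.01 and -0.03.

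B cell identity genes were mostly higher or near their untreated level. All 25 listed genes were well above background in both groups, 15 rose and 5 fell, and the median was 0.30 (0.16 without normalization between arrays). Cd22, an inhibitory coreceptor of the antigen receptor, went from 12.46 and 12.49 to 13.86 and 14.11 (2.85-fold higher, limma adjusted p = 5.14e-09), and its other probe rose by 1.14. Cd200, an inhibitory surface ligand, went from 8.94 and 8.93 to 10.46 and 10.38 (2.81-fold higher), Cd38 rose 2.69-fold (other probe 0.57 on the log2 scale) and Fcmr, the receptor for IgM, 2.0-fold. Groups did not overlap in any of these. Ms4a1, which encodes CD20, rose by 0.68, Pax5 by 0.52 and Cd79a by 0.30, and Cd79b (0.07) was not called. Ebf1, a factor of B cell commitment, fell by 0.66, the kinase Blk by 0.64 and Fcer2a, which encodes CD23, by 0.47. After exchange of the labels the median was -0.02 and no member was called.

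Survival receptors, Toll-like receptors and regulators of differentiation changed in part. Tnfrsf13b, which encodes the BAFF and APRIL receptor TACI, went from 11.06 and 10.99 to 12.80 and 12.94 (3.59-fold higher, limma adjusted p = 3.63e-13), and the BAFF receptor Tnfrsf13c rose by 0.72. Tnfrsf18, which encodes GITR, rose 3.45-fold, whereas the TNF receptor Tnfrsf1b and the adaptor Traf1 fell 2.70-fold and 2.40-fold (a second Tnfrsf1b probe differed by -0.20), which left 6 of 19 genes of this list higher and 6 lower. Of 21 Toll-like receptors and partners 11 rose and 3 fell (median 0.26, but 0.06 without normalization between arrays). Cd180, a homologue of TLR4 on B cells, went from 8.41 and 8.39 to 10.62 and 10.13 (3.93-fold higher, with its other probe at 0.92 on the log2 scale), Tlr1 rose 2.55-fold and Ly96, which encodes the MD-2 subunit of the lipid A receptor, 2.29-fold. All 18 regulators of germinal centre and plasma cells were called, 10 higher and 8 lower (median 0.24, but 0.03 without normalization between arrays). Irf4, induced by activation, went from 12.35 and 12.04 to 11.02 and 11.15 (2.16-fold lower), and Batf, Mef2c and Mzb1 rose 2.15-fold, 2.12-fold and 2.10-fold. In MHC class II presentation, Rfxank, a subunit of the RFX factor, rose 3.08-fold and Ciita, the coactivator of the class II genes, rose by 0.74, while the class II chains H2-Aa, H2-Ab1 and H2-Eb1 fell by 0.65, 0.38 (other probes -1.08 to -0.78) and 0.49. Under the exchanged labels no member of the TNF and germinal centre lists was called, and 1 of each of the others was, H2-Ob among class II genes (0.48).

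Antioxidant genes, many of them targets of the transcription factor NRF2, and lysosomal genes were higher at 12 h. Of 27 genes of oxidative stress 17 rose and 2 fell (median 0.42, and 0.27 without normalization between arrays). Nqo1, a quinone reductase and standard NRF2 target, went from 6.36 and 6.37, close to background, to 8.98 and 8.47 (5.12-fold higher, standard error of the log2 difference 0.12, limma adjusted p = 1.27e-11). Cat, catalase, went from 10.01 and 10.28 to 11.67 and 11.76 (2.96-fold higher), and Gsr, the glutathione reductase, and Txnrd1, the thioredoxin reductase, rose 2.34-fold and 2.27-fold. Hmox1, haem oxygenase, rose by 0.70 and Nfe2l2, which encodes NRF2, by 0.62. Srxn1 (0.05), Me1 (0.01) and G6pdx (-0.03) were not called, and Prdx6 fell by 0.75. Of 25 lysosomal genes 13 rose and 4 fell (median 0.26, but 0.09 without normalization between arrays), with the calcium channel Mcoln1 at 11.86 and 12.06 before and 13.43 and 13.64 after (2.97-fold higher). The hydrolases Ctsa, Ctsd and Hexa rose 2.67-fold, 2.30-fold and 2.07-fold, while the other Ctsa probes differed by 0.14 to 1.10, and Cd63, a lysosomal membrane protein, fell by 0.51. With the labels exchanged the medians were -0.04 and 0.00, and 1 member, lysosomal, was called.

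The promoters of Txnrd1 and Mcoln1 are shown because both genes rose and both hold the element named for their list. The antioxidant response element was searched as TGACNNNGC and was in 10 of 23 matched members (43.5%), among them Srxn1, Me1 and G6pdx, which were not called, and in 3781 of 27025 genes (14%). The CLEAR element of lysosomal genes was searched as TCACGTGA, a palindrome that contains the E-box, and was in 5 of 18 matched members (27.8%), which were Ctsa, Ctsd, Mcoln1, Atp6v0d1 and Atp6v1a, and in 304 of 27025 genes (1.12%). Of these 5, Atp6v0d1 fell by 0.25 and Atp6v1a was not called (0.07). Txnrd1 lies at chr10:82858956-82859255 and Mcoln1 at chr8:3500269-3500568, both on the plus strand (GRCm38.p6, 5′ to 3′, matches in capitals).
Txnrd1: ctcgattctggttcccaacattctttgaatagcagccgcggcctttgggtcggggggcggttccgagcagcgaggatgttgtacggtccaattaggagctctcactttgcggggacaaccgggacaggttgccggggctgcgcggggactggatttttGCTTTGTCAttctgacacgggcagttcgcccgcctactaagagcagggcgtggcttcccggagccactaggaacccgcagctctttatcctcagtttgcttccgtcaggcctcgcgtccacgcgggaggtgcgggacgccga
Mcoln1: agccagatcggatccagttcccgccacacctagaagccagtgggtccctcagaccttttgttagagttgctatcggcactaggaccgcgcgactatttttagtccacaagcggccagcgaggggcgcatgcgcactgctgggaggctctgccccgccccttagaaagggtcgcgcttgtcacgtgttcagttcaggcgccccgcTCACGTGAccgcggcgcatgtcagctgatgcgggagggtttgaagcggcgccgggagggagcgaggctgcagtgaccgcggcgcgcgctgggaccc

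Energy metabolism showed no common direction. Of 26 genes of glycolysis and transport of glucose and lactate 7 rose and 9 fell (median -0.09), and of 37 genes of oxidative phosphorylation 8 rose and 9 fell (median -0.09). Without normalization between arrays these medians were -0.23 and -0.28. Aldoc, an aldolase isoform, was the exception in size, at 7.61 and 7.63 before and 10.26 and 10.33 after (6.38-fold higher, limma adjusted p = 3.13e-15), and its other probe rose by 1.52. Eno3, an enolase, rose 2.20-fold and Pfkm by 0.96, whereas the lactate transporter Slc16a1 fell 2.01-fold (other probes -0.57 to -0.14 on the log2 scale), Hk2, a hexokinase, by 0.95 and Ldha by 0.77. Txnip, which restrains glucose uptake, went from 13.57 and 13.41 to 11.84 and 12.20 (2.78-fold lower). On the exchanged labels, the medians of both lists were 0.00 and -0.02.

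Cytokine genes were low or moderate in both groups. Of 23 tested 11 fell and 3 rose (median -0.22). Csf1, the growth factor of macrophages, went from 9.15 and 8.98 to 6.78 and 6.78 (4.88-fold lower, limma adjusted p = 2.06e-13). Tgfb1 fell 2.59-fold, Ccl5 and Ccl4 2.47-fold and 2.35-fold, Tnf 2.08-fold and Il1b at least 2.09-fold. Ifng rose, from 8.85 and 8.69 to 9.98 and 9.76. Il6 was not well above background in untreated cells and was at least 3.06-fold higher at 12 h (7.70 and 7.71). Its level on the KLA 1 h array was 6.02 and on the KLA 12 h array 9.27. Among 21 interferon-stimulated genes 9 rose and 5 fell, without a change over 2-fold, the ends being Oasl2 (0.93) and Rsad2 (-0.94, other probe -0.17). After exchange of the labels 1 gene of each of these lists was called.

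Lists on survival, stress hormones and daily rhythm changed in both directions. Of 16 BCL2 family genes 5 fell and 3 rose. The fallers were the pro-death members Bmf (-0.92), Bcl2l11, which encodes Bim (-0.80, other probes -0.70 to -0.13), Pmaip1 (-0.78) and Bbc3 (-0.38), and the pro-survival Bcl2a1b (-0.87), whose near-identical copies a probe may also read. The members that rose were the pro-survival Bcl2 (0.47, other probes -0.23 to 0.67) and Bcl2l2 (0.54) and the pro-death Bad (0.33, with another probe at -0.28), and Mcl1 was not called (0.09). Of 20 p53 targets 5 rose and 3 fell (median 0.08, but -0.09 without normalization between arrays), with Phlda3 up 2.13-fold and Cdkn1a, the cell cycle inhibitor p21, from 8.34 and 8.34 down to 7.18 and 7.24 (2.19-fold lower). Of 20 genes of quiescence 4 rose and 5 fell (median -0.02). Of 12 glucocorticoid-responsive genes 2 rose and 6 fell, 2 of these by more than 2-fold (median -0.41), with Klf9 down 2.29-fold. Of 18 clock genes 2 rose and 7 fell (median -0.16), with Tef down 2.45-fold (other probes -0.44 to -0.35 on the log2 scale). Under the exchanged labels 1 BCL2 family gene (Bbc3, 0.35), 3 p53 targets and 2 clock genes were called, and none of the quiescence and glucocorticoid lists.

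**Figure D2:**
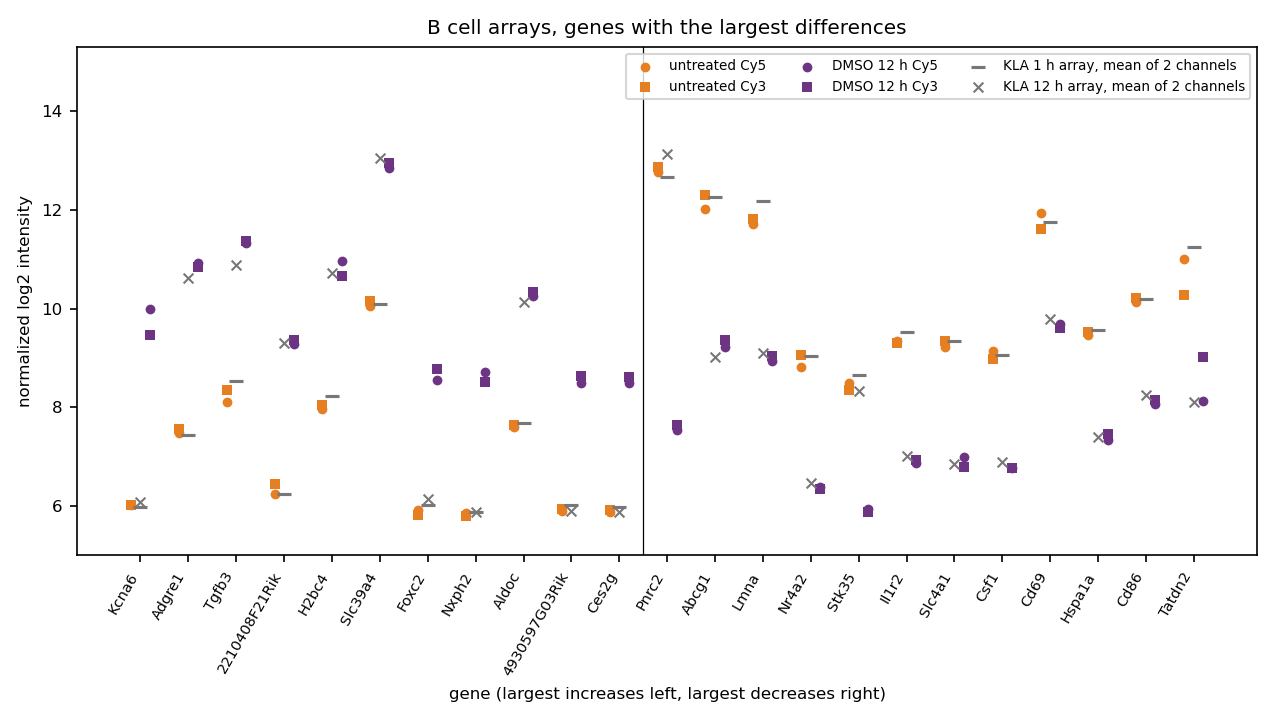
Normalized log2 intensity (y axis) of the genes with the largest increases and decreases reported here (x axis) in both channels of the untreated and DMSO 12 h arrays, with the KLA arrays as means of 2 channels. Adgre1, Tgfb3 and Lmna had similar levels on both 12 h arrays, whereas Kcna6, Foxc2, Nxph2, 4930597G03Rik, Ces2g, Pnrc2 and Stk35 stood apart on the DMSO 12 h array alone.

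Among the 12 largest increases and 12 largest decreases with groups that did not overlap, 7 and 10 were seen on the KLA 12 h array too. Beside Aldoc, the increases included Adgre1, Tgfb3, Slc39a4, H2bc4 and 2210408F21Rik (2.99, with its other probe at 1.84). Tgfb3, a transforming growth factor, went from 8.11 and 8.35 to 11.33 and 11.36 (8.66-fold higher, limma adjusted p = 7.59e-14). Slc39a4, a zinc importer, went from 10.04 and 10.15 to 12.85 and 12.95 (6.97-fold higher). H2bc4, a replication-dependent histone gene with near-identical copies, rose 7.03-fold by 1 probe and by 0.27 on the log2 scale by the other. Among the decreases, Lmna, which encodes lamins A and C (mm8 chromosome 3, 88569137 to 88569196), went from 11.72 and 11.82 to 8.95 and 9.03 (6.88-fold lower, adjusted p = 8.63e-14), and its other probes differed by -3.27 and -3.16. Il1r2, the decoy receptor of interleukin 1, went from 9.35 and 9.31 to 6.88 and 6.94 (5.35-fold lower), and its other probe differed by -1.42. Tatdn2 was the least even, with means of 10.64 ± 0.506 before and 8.58 ± 0.627 after (SD, n = 2 channels).

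The remaining 5 increases and 2 decreases of this group were seen on the DMSO 12 h array alone. Kcna6, a potassium channel, was not well above background in untreated cells (6.01 and 6.02) and read 10.00 and 9.48 at 12 h, at least 12.5-fold higher, but 5.97 and 6.09 on the KLA 1 h and 12 h arrays. Foxc2, Nxph2, 4930597G03Rik and Ces2g had the same pattern, with bounds of 5.95-fold, 5.73-fold, 5.55-fold and 5.49-fold. Pnrc2, the largest decrease, went from 12.76 and 12.88 to 7.55 and 7.65 (37.3-fold lower), against 13.13 on the KLA 12 h array, and Stk35 fell at least 5.28-fold, against 8.33 there, while its other probe differed by 0.02. Of 228 called genes that changed by more than 1.5 on the log2 scale, 24 differed by more than 2-fold between the 12 h arrays, 21 of them increases and 3 decreases. In 17 of the 21 increases, no untreated channel was well above background. The spots of 12 of the 24 lay in rows 1 to 53 of the 532 rows of the array, as did 9.13% of all genes tested, Kcna6 in row 29, Nxph2 in row 17, Il6 in row 8 and Fosl2 in row 18. Fosl2 (2.84) is not among the 12 largest increases because its Cy5 value at 12 h is missing, and its other probe differed by -0.04. The part of spot position, of the array and of KLA in these values was not tested.

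Markers of other cells were called in part. The share of tested markers called was 38.5% for macrophages, 41.7% for T cells, 25% for natural killer cells and 8.33% for granulocytes. It was 71.4% for dendritic cells and 57.1% for platelets, against 47.4% of all genes tested. In the granulocyte list, 10 of 12 genes were not well above background in any of the 4 channels, and in the macrophage list 5 of 13, among them Itgam, the CD11b gene used in the depletion. The summed linear intensity of the macrophage markers went from 1565 to 1588 in untreated channels to 3220 to 3372 at 12 h, against 518000 to 518800 and 647900 to 650400 for the B cell genes. Adgre1, which encodes the macrophage antigen F4/80, made up this rise, from 7.48 and 7.56 to 10.93 and 10.84 (10.3-fold higher, limma adjusted p = 2.9e-14), while its other probe rose by 0.47. Lyz2 rose by 0.51, Cd68 fell by 0.42, Csf1r by 0.18 and C1qc at least 1.23-fold, and Cd14 (-0.13) and C1qb (-0.21) were not called. Of 12 T cell markers 4 rose and 1 fell. Lck, a kinase that some B cells express too, rose by 1.31, while Cd3e (0.07), Cd3d (0.01), Cd4 (0.00) and Thy1 (0.01) were not called. Natural killer markers had 2 of 8 higher, Klrd1 by 1.17 and Prf1 by 0.28, which is the 25.0% found over all genes tested. Dendritic cell markers had 3 of 7 higher and 2 lower, and platelet markers 1 of 7 higher and 3 lower. The dendritic list was the brightest of these lists, with a summed intensity of 50230 to 55390 before and 71850 to 74030 after, most of it from Ly6d, which B cells express too (15.61 before and 16.09 after). Its largest called difference was 0.73 for Ccr9, but a second probe of Xcr1 differed by -1.59. The T cell list had sums of 5371 to 5688 before and 6594 to 6699 after, most of it from Cd2 and Lck. Of these, Lck rose and Cd2 fell (11.64 before and 11.31 after). On the exchanged labels 2 of all these markers were called, Ncr1, a natural killer receptor (2.33), and Elane (0.41). The part of other cells in the results was not tested.

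All 4 erythroid markers that could be tested fell. Hba-a1, a haemoglobin chain, went from 11.29 and 11.44 to 10.23 and 10.32, Alas2 from 8.00 and 8.17 to 6.91 and 6.93, and Slc4a1, the anion exchanger of red cells, from 9.22 and 9.34 to 6.99 and 6.79 (5.24-fold lower, limma adjusted p = 1.93e-13). Their summed linear intensity was 3731 to 4076 before and 1785 to 1844 after. None was called after exchange of the labels (median 0.05). The part of red cell precursors in the values of other genes that fell was not tested.

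**Figure D3:**
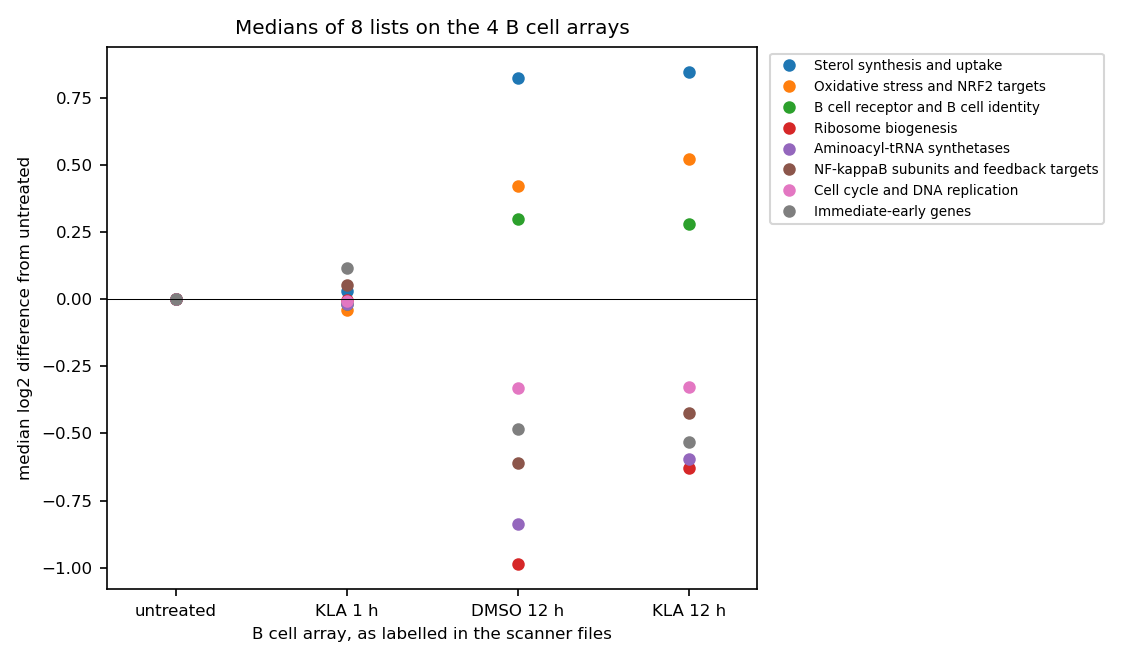
Median log2 difference from the untreated array (y axis) of 8 lists on each of the 4 B cell arrays (x axis, labels of the scanner files), each point a median over list members. On the DMSO 12 h array the sterol list stood at 0.82 and ribosome biogenesis at -0.99, on the KLA 12 h array at 0.85 and -0.63, and on the KLA 1 h array at 0.03 and 0.00.

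The same lists were read on the KLA arrays, which share no sample with the comparison above. Between KLA 12 h and KLA 1 h, 24.8% of all genes tested were called higher and 24.4% lower. Of these genes, 6177 were also called in the same direction in DMSO 12 h against untreated and 103 in the opposite one. The sterol list had 20 of 24 members higher and none lower in that comparison (median 0.84), the ribosome list 27 of 30 lower (-0.65), the NF-kappaB list 13 of 17 lower (-0.52) and the immediate-early list 18 of 22 lower (-0.80). On the exchanged labels, these differences belong to KLA 12 h against DMSO 12 h.

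The 12 h change of B cells was set against that of the control arrays of macrophages. In EPM (DMSO 12 h against untreated) 3294 genes were called and in BMDM (DMSO 12 h against DMSO 1 h, since an untreated sample is not among the labels) 4005. The change differed between B cells and EPM for 7219 genes (42.0%, limma, adjusted p under 0.05 for the difference of the changes) and between B cells and BMDM for 7126 (41.4%). In 714 genes, B cells and EPM were both called in opposite directions and the difference of the changes was called too. Cell type and slide cannot be told apart here, and each change is measured within its own slide.

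**Figure D4:**
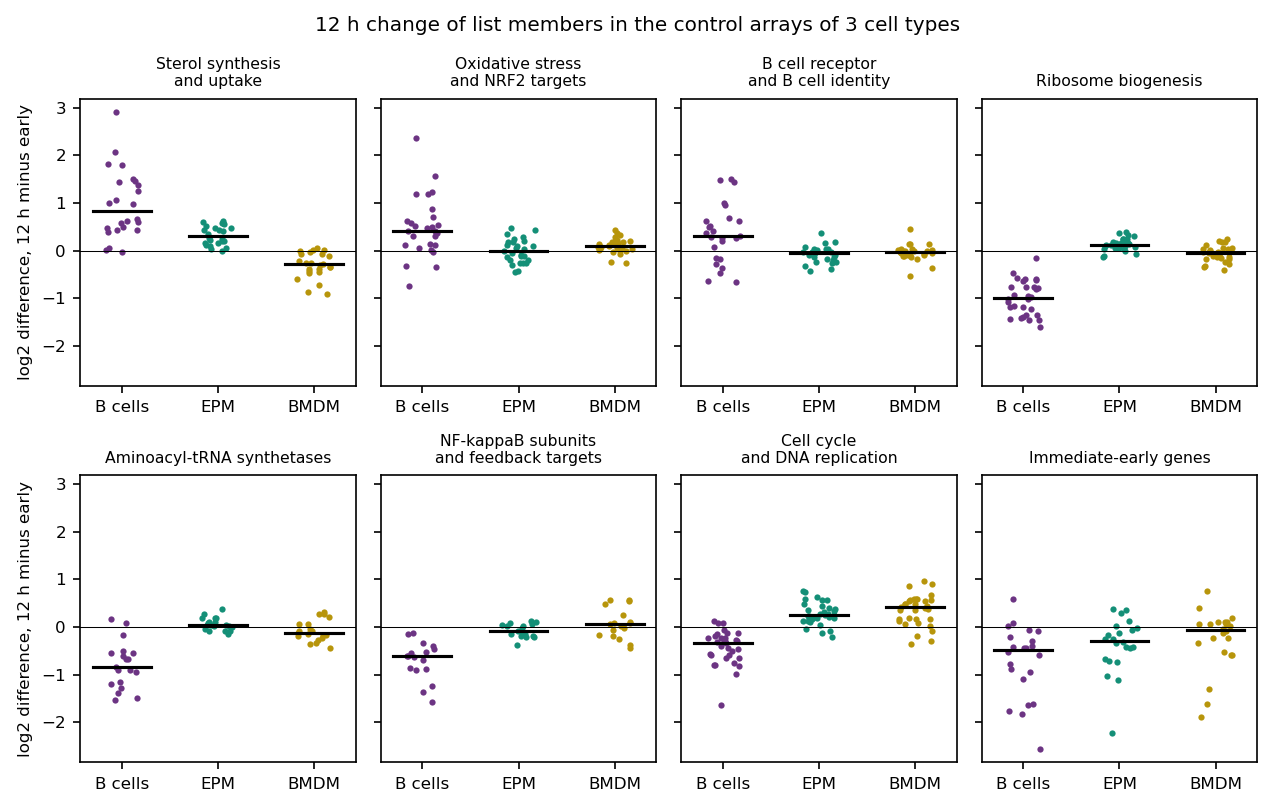
Log2 difference of 12 h minus the early control (y axis) for members of 8 lists in B cells, EPM and BMDM (x axis). Each point is 1 gene and black bars are medians, and the ribosome biogenesis medians were -0.99 in B cells, 0.12 in EPM and -0.04 in BMDM.

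Ribosome biogenesis and cell cycle genes had many members whose change differed from that of the macrophages. Over all genes tested, the change was higher in B cells than in EPM for 21.6% and lower for 20.4%, and against BMDM for 21.2% and 20.2%. For ribosome biogenesis 29 of 30 changes were lower in B cells than in EPM, and 29 than in BMDM. Polr1a changed by -1.41 in B cells, 0.06 in EPM and 0.17 in BMDM (limma adjusted p for the differences 9.3e-11 and 4e-11). For the cell cycle list, 28 and 29 of 32 changes were lower in B cells, and the medians were -0.33 in B cells, 0.25 in EPM and 0.42 in BMDM. The NF-kappaB list had 13 of 17 changes lower than in EPM and 14 lower than in BMDM. In EPM 10.8% of all genes were called higher and 8.32% lower, and in BMDM 13.3% and 10.0%. Sterol genes rose in EPM too, 15 of 24 with a median of 0.31, and fell in BMDM, 14 of 24 with a median of -0.29. The rise in B cells was larger than in EPM for 16 of 24 and larger than in BMDM for 21. Idi1 changed by 1.80 in B cells, 0.56 in EPM and -0.72 in BMDM, and the differences were called in both comparisons (adjusted p = 2.61e-08 and 7.24e-12). Immediate-early genes fell in all 3 cell types in part, with 11 of 22 lower in EPM and 8 in BMDM. Nr4a1 changed by -1.82 in B cells, -2.22 in EPM and -1.89 in BMDM, a difference that was called against EPM (adjusted p = 0.0013) and not against BMDM (adjusted p = 0.57). Interferon-stimulated genes fell in EPM (19 of 21, median -0.81) and in BMDM (11 of 21, median -0.34), and 16 and 11 of the 21 changes were higher in B cells than there.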

How the data were processed

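The data were 24 channels of 12 Agilent 2-colour mouse arrays. The authors deposited scanner files of spot and background intensities, extracted with Agilent Feature Extraction 9.5.3.1 per the file headers, with probe coordinates on mm8. A table of normalized values from the authors (38516 probes, converted to log2 here) served only as an alternative. Its DMSO 12 h and KLA 1 h columns for B cells are exchanged against the scanner labels.

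Mean intensities were corrected with normexp (offset 50), normalized by loess within arrays and by quantiles of mean intensity between arrays (limma 3.58.1, R 4.3.3, data.table version 1.17.8), and taken as log2 per channel, with replicate spots averaged. The offset compresses fold changes of dim genes. Of 41174 probes, 23374 were named through RefSeq accessions, 9632 through symbols or synonyms and 1845 by the name in the file only, while 6323 stayed unnamed. The brightest probe stood for each of 21329 genes, 8890 of which had several, and "other probes" are those detected in each channel of the brighter group. A gene was tested where some condition of the 12 had it well above background with both dyes, and 3 genes with missing values were left out. A limma model with 1 coefficient per condition over all 24 channels left 12 residual degrees of freedom. Calls had a two-sided Benjamini-Hochberg adjusted p under 0.05 over all genes tested. "At least" folds set the brighter group against the dimmer value or the lowest signal well above background, whichever was higher. Those lowest signals were 5.44 to 6.13 across channels. Genes that were not well above background can read higher than these, so the bounds are approximate. On simulated data with 200 changed genes of 17174, the fit called all 110 that were changed 2-fold, all 90 that were changed 4-fold and 13 that were not changed. The simulated noise was independent between channels and held only the spread within arrays. Because it left out differences between arrays and deviations shared by a dye, it cannot show how the fit fares with them.

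The genes named were the 12 largest increases and 12 largest decreases with channels that did not overlap, the 3 largest changes in each list, and the defining markers. Further members of the lists were named after their values were seen. A few genes of the lists are not reported here. The members and the lists were chosen with earlier results of these data known. Every channel shares its dye with 1 channel of each other condition, and in all 66 pairs of conditions channels of the same dye deviated together (r = 0.267 to 0.629, and 0.341 for the conditions compared), so that dye was tried as a block. The alternatives were another offset, the processed signals, other normalizations, the normalized values of the authors, the exchanged labels, other filters, the mean of probes, fits of fewer channels, array means as samples, a threshold of 0.01, and leaving out each channel. The number of arrays limits the precision.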

Additional observations from a re-analysis of the deposited data

Results flagged for a closer look

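The 12 h change differed between B cells and EPM for 7219 genes and between B cells and BMDM for 7126 genes, by limma's test of the difference between the changes (adjusted p under 0.05). Each cell type lay on a slide of its own, so that cell type and slide cannot be told apart, and the early control of BMDM had received DMSO for 1 h.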

How the results depend on the processing

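The count of genes called stayed within 1.5 times under every alternative but those that change the labels. Over the others it ranged from 6012 with array means as samples (1 residual degree of freedom) to 9567 with dye as a replicate block (4930 higher and 4637 lower). The array means were those of all B cell arrays, KLA included, fitted with terms for time and for KLA. Their time term averages the changes with and without KLA, so it is not a test of DMSO 12 h against untreated alone. The replicate block gave 8895 genes that differed from EPM and 8837 that differed from BMDM, and no call of the 122 named genes was lost with it. With the scanner labels exchanged, 888 genes were called (468 higher and 420 lower), 32 of them over 2-fold higher and 11 over 2-fold lower, and 2452 and 2706 genes differed from EPM and BMDM. In the table of the authors with its columns as labelled, 427 genes were called (225 higher and 202 lower), 34 of them over 2-fold higher and 17 lower, and 1599 and 2066 genes differed from EPM and BMDM. With its columns exchanged, 7106 genes were called. Processed signals gave 1365 genes over 2-fold higher and 829 lower. Equal channel medians in place of quantile normalization between arrays gave 395 over 2-fold higher. The cause was not tested. Leaving out 1 channel gave 6734 to 7217 genes called, 3630 to 3875 higher, 3104 to 3342 lower, 590 to 651 over 2-fold higher, 241 to 291 over 2-fold lower, 6359 to 6655 that differed from EPM and 6139 to 6554 from BMDM. At an adjusted p under 0.01, 6529 genes were called.

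With the scanner labels exchanged, 6 list medians turned sign, B cell identity to -0.0176, immediate-early genes to 0.117, NF-kappaB to 0.0553, ATF4 targets to 0.0923, endoplasmic reticulum chaperones to 0.0198 and antioxidant genes to -0.0374. In the table of the authors as labelled 9 turned, immediate-early genes to 0.113, NF-kappaB to 0.0702, cell cycle to 0.0217, ribosome biogenesis to 0.0203, aminoacyl-tRNA synthetases to 0.00182, ATF4 targets to 0.105, endoplasmic reticulum chaperones to 0.00133, antioxidant genes to -0.0149 and lysosome to -0.0191. Without normalization between arrays, 26 of 30 list medians moved by more than the spread between channels, mostly downward, and the median of p53 targets turned from 0.0766 to -0.0875. Of the 122 named genes, 118 to 122 kept direction and call under each alternative of the scanner values apart from array means (111) and exchanged labels (5, with 62 reversed), and 111 of 112 did in the table with its columns exchanged.

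Among the largest changes, the exchanged labels and the table as labelled gave -0.077 and -0.203 for Adgre1, -0.105 and -0.0253 for 2210408F21Rik, -0.00114 and -0.0225 for Slc39a4, 0.0975 and 0.107 for Abcg1, 0.414 and 0.341 for Lmna, 0.104 and 0.0827 for Nr4a2, 0.226 and 0.25 for Stk35, 0.195 and 0.132 for Il1r2, 0.0578 and 0.0218 for Slc4a1, 0.0687 and 0.00312 for Hspa1a, and 0.618 and 0.616 for Tatdn2. The exchanged labels alone reversed Kcna6 (-0.0447) and Cd86 (0.0325), and the table as labelled alone reversed Cd69 (0.0164).

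Without the 67 genes that differed by over 2-fold between the 12 h arrays, an alternative chosen after seeing the data, 8092 genes were called, 569 over 2-fold higher and 253 lower. With 1 array per condition, no count of channels stands for independent cultures. Where a gene was not well above background, its fold is compressed, and the floors of 5.44 to 6.13 give only approximate bounds.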
